A study of Mus musculus with 24 samples.

Results

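The comparison described here set cultured mouse B cells whose Spi1 gene, which encodes the transcription factor PU.1, had been conditionally deleted against control B cells, after stimulation with lipopolysaccharide (LPS) and interleukin-4 (IL-4). Its members are the genes that reached 0.5 CPM (counts scaled to a common library total of 1e6) in at least 2 of the 4 libraries compared, which were 12054 of the 27179 genes in the count table. The 4 libraries, 2 for each genotype, belong to a set of 24 RNA-seq libraries that also covers naive B cells, a culture with CD40L and IL-4, and mice that lack SpiB or both factors. Control mice were Cd23T/+, carrying a Cre transgene under Cd23 (Fcer2a) regulatory sequences, and had no floxed Spi1 allele. PU.1 conditional knockout (cKO) mice were Spi1fl/fl Cd23T/+, so that both groups carried Cre and only the cKO group carried the floxed gene. The mice were on a C57BL/6 background, 6 to 20 weeks old and matched for age and sex. Lymph node B cells were cultured for 48 h with 20 ug per ml LPS and 10 ng per ml IL-4 and then sorted as CD3- B220+ CD138-, a gate that leaves out CD138+ plasmablasts. Each group has 2 biological replicates, and Spib is intact in both, so the comparison asks which transcripts differ when PU.1 is removed while SpiB remains.

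PU.1 is an ETS family transcription factor that binds purine-rich DNA with a GGAA core, and it is expressed in myeloid cells and B cells. SpiB, encoded by Spib, is its closest relative in B cells and recognises very similar sites. LPS activates B cells through TLR4 and drives division and plasma cell differentiation, while IL-4, signalling through STAT6, directs class switching to IgG1 and IgE. Cre under Cd23 sequences acts in transitional and mature B cells, so PU.1 was present during early B cell development.

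The control libraries held 22757630 and 56388071 counts and the PU.1 cKO libraries 73658850 and 37390801, and the replicates of a genotype correlated at Pearson r = 0.988 and 0.991 over genes on the log2 CPM scale. PU.1 cKO replicate 2 stood apart in ribosomal RNA, with Rn45s taking 3.26% of its counts and between 0.490% and 0.827% in the other 3 libraries. With Rn45s left out of the library totals 1247 genes were called in place of 1254, and 1232 of them were among the 1254. All 11 B cell markers examined were among the genes tested, and they summed to 12486 and 10473 CPM in the control libraries and to 9196 and 8401 CPM in the cKO libraries. Of their log2 fold changes 10 of 11 were negative, and 2 of the 11 (18.2%) were called lower, against 3.87% of all genes tested. Of the markers of other cells, 17 of 29 for T and NK cells and 19 of 23 for macrophages, monocytes and granulocytes were too low to test, with no count above 22 and 5, respectively, in any of the 4 libraries. The other 12 T and NK markers, given below, and 10 of 18 dendritic cell markers were tested. The tested members of the dendritic list, which holds genes that B cells express such as Irf8, summed to 979 to 1150 CPM. The part of other cells in the results was not tested. Because these are bulk RNA libraries, fewer cells of a kind and less RNA per cell cannot be told apart in any level below. A gene is called here where edgeR's quasi-likelihood test gave a Benjamini-Hochberg adjusted p below 0.15 and the fold change exceeded 1.5, and rose or fell is written only of such genes.

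Transcripts counted over the whole targeted gene were reduced but not absent. The study reports highly efficient deletion of the floxed exon in this culture. The counts that remain do not show that deletion was incomplete. Spi1 measured 72 and 60.5 CPM in control and 44.2 and 41.2 CPM in PU.1 cKO, and its counts are for the whole gene, so the floxed exon 5 was not measured separately. Both cKO libraries lay below both controls (log2 fold change -0.63, SE 0.10, edgeR adjusted p = 0.00389), and without control replicate 1 the log2 fold change was -0.50, below the 1.5-fold threshold. Spib stood at 276 and 210.3 CPM in control and 229 and 178 CPM in PU.1 cKO, a log2 fold change of -0.26 that did not pass the test (edgeR adjusted p = 0.446). Fcer2a, the gene whose regulatory sequences drive Cre and which encodes CD23, measured 790.2 and 716 CPM in control and 620.3 and 495 CPM in PU.1 cKO. It passed the test at an edgeR adjusted p of 0.0543 but its change of -0.43 (SE 0.12) stayed below 1.5-fold. Without PU.1 cKO replicate 1 it was -0.60 and counted as lower.

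The called gene nearest to Spi1 was expressed in PU.1 cKO cells and nearly absent from controls. Mybpc3, which encodes a cardiac myosin-binding protein and lies 2.36 kb from Spi1 at chr2:91118114-91136516 (GRCm38.p6), measured 0.173 and 0.197 CPM in control and 323 and 291 CPM in PU.1 cKO. It was near 0 in both controls and well expressed in both cKO libraries (log2 fold change 10.64, SE 0.17, edgeR adjusted p = 2.07e-09). In the libraries of SpiB KO mice, which carry the floxed Spi1 allele without Cre, its log2 fold change over the same controls was 2.19, and in the PU.1 SpiB double knockout (DKO) libraries it was 10.70. It was the only 1 of 24 other tested genes within 1 Mb of Spi1 to be called (4.17%, against 10.4% of all genes tested), and 2 of 39 within 5 Mb were called (5.13%), the other being Trp53i11, which was named after its values were seen. No gene within 5 Mb of Fcer2a was called (0 of 23).

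Of the 12054 genes tested, 1254 (10.4%) were called. More genes were higher in PU.1 cKO cells, 787 (6.53%), than lower, 467 (3.87%). Of these, 458 rose and 240 fell by more than 2-fold, and 979 of the 1254 also passed an adjusted p of 0.05. The median log2 fold change over all genes tested was -0.00082. In every called gene the values of the cKO libraries did not overlap those of the controls, as was also true of 6045 of all genes tested. An exact permutation test of 2 libraries against 2 cannot give a two-sided p below 0.333, so single genes were judged by the fit alone. The split into higher and lower rested in part on the controls, with 635 of 1257 called genes higher without control replicate 2 and 847 of 1195 without control replicate 1, and it was 682 of 1273 with quantile-normalized voom values.

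**Figure D1:**
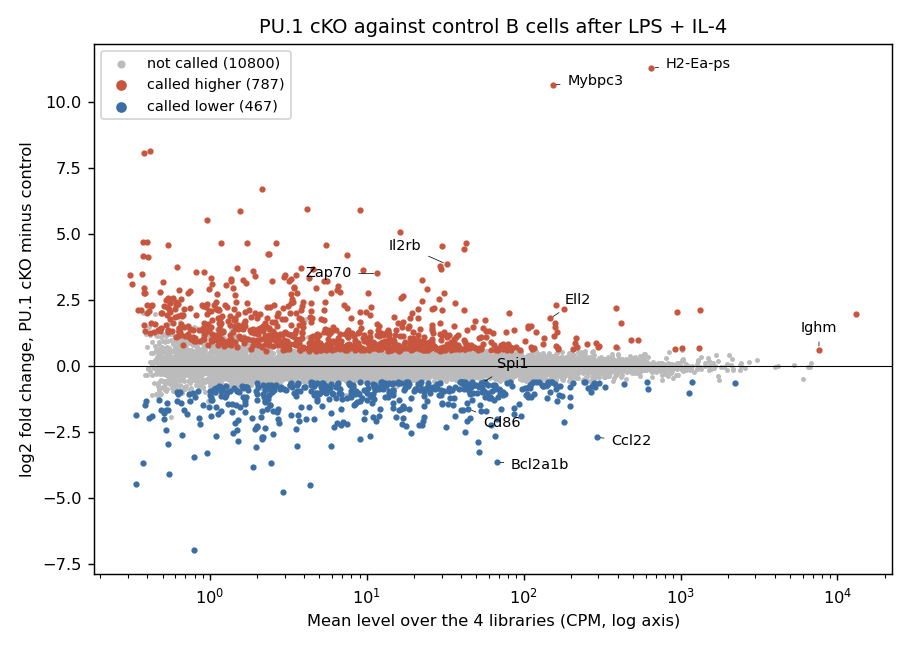
Each point is 1 of the 12054 genes tested, placed by its mean CPM over the 4 libraries (x, log axis) and its log2 fold change of PU.1 cKO over control (y), with the 787 genes called higher in red, the 467 called lower in blue and the other 10800 in grey. Mybpc3 and H2-Ea-ps lie at the top, above a log2 fold change of 10.

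Among the genes with the largest falls were the Bcl2a1 genes, which encode copies of the anti-apoptotic protein A1. Bcl2a1b measured 121 and 128 CPM in control and 10.9 and 9.1 CPM in PU.1 cKO, a 12.4-fold lower level (log2 fold change -3.63, SE 0.12, edgeR adjusted p = 4.18e-07). Bcl2a1d measured 88 and 100.2 CPM in control and 10.9 and 8.52 CPM in PU.1 cKO (log2 fold change -3.27, SE 0.16, edgeR adjusted p = 6.06e-06) and Bcl2a1a, at lower counts, changed by -3.28 on the log2 scale (SE 0.43, and -4.38 without PU.1 cKO replicate 1). All 3 were far lower in both cKO libraries than in either control. The copies are near-identical and only uniquely mapped reads were counted, so the share of each copy is uncertain. Of the 31 survival and death genes tested, 6 fell and none rose (19.4%, against 3.87% of all genes called lower), with a list median of -0.14. The 6 include the 3 Bcl2a1 copies, which are not independent members, so the share rests in large part on this family. The fallers included Bmf at -1.42 (-2.08 without PU.1 cKO replicate 1), which encodes a pro-apoptotic BH3-only protein. In the DKO libraries over the same controls Bmf changed by -0.14, and Bcl2a1b, Bcl2a1d and Bcl2a1a by -3.48, -3.32 and -3.3. The remaining 25 lay between -0.44 and 0.52.

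The promoters of the Bcl2a1 genes and of some other genes that fell hold a purine-rich ETS motif of the kind PU.1 binds, searched as GAGGAAGT on either strand from 250 bases before to 50 bases after the start site in RefSeq windows (GRCm38.p6). A gene counted once if any of its windows held the motif. Of the genes with a window, it was in 34 of 350 called lower (9.71%), 21 of 540 called higher (3.89%) and 359 of all 9106 tested (3.94%). Counted by window, it was in 383 of the 11531 windows of these genes (3.32%). The shorter AGGAAGT, which the longer motif contains, was in 17.7% of lower genes with a window, 10.6% of higher and 10.7% of all, while CGGAAGT, a form read by many other ETS factors, was in 6.86%, 4.07% and 16.4%. A match describes the letters only, and no binding was measured. The windows below belong to genes named here that fell, and are shown because each carries the motif upstream of its start. Each line gives the motif in capitals with 30 bases to either side, 5′ to 3′ along the gene's own strand, and where it reads ACTTCCTC the motif is on the other strand. They are the 3 Bcl2a1 copies (Bcl2a1a at chr9:88956786-88956853, Bcl2a1b at chr9:89199095-89199162 and Bcl2a1d at chr9:88731917-88731984), Kmo at chr1:175632060-175632127, Cd72 at chr4:43454638-43454705, Rasgrp3 at chr17:75435825-75435892, Pirb at chr7:3720465-3720532 and Il4i1 at chr7:44836125-44836192, with Bcl2a1d, Cd72 and Pirb on the minus strand and the others on the plus strand.
Bcl2a1a: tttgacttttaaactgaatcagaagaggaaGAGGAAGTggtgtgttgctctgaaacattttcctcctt
Bcl2a1b: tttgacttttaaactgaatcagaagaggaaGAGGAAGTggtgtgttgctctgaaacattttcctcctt
Bcl2a1d: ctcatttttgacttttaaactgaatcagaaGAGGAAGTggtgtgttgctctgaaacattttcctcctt
Kmo: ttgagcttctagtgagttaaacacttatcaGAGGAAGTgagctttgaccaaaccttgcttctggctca
Cd72: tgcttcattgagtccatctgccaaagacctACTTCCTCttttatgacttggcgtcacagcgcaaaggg
Rasgrp3: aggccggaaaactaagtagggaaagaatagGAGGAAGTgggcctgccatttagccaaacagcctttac
Pirb: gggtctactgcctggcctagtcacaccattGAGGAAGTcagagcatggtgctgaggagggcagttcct
Il4i1: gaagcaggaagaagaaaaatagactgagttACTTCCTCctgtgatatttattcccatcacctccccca

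The motif lies between 49 bases (Cd72) and 148 bases (Bcl2a1b) before the start. The 68 bases shown for Bcl2a1a and Bcl2a1b are identical and those of Bcl2a1d repeat nearly the same stretch, so the 3 copies are not independent examples. The counts by gene take each gene of a family as 1, so that the lower genes with the motif include 4 Bcl2a1 genes, 3 Phf11 genes and the neighbours Trim12a and Trim5. Kmo, which encodes the kynurenine-pathway enzyme kynurenine 3-monooxygenase, measured 60.9 and 46.5 CPM in control and 12.5 and 8.71 CPM in PU.1 cKO, so that both cKO libraries were well below the controls (log2 fold change -2.32, SE 0.19, edgeR adjusted p = 0.000105). Rasgrp3, a guanine nucleotide exchange factor that activates Ras and Rap downstream of the B cell receptor, changed by -0.85 (SE 0.14, edgeR adjusted p = 0.00434). Cd72, Pirb and Il4i1 are described with their groups below.

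The other large falls spanned signalling, chemokine and complement genes. Ccl22, which encodes a chemokine that attracts CCR4-bearing T cells, measured 461 and 554 CPM in control and 90.2 and 65.8 CPM in PU.1 cKO. Its cKO levels were 6.49-fold lower (log2 fold change -2.7, SE 0.37, edgeR adjusted p = 0.00155), with each library clear of the other genotype. Faim3, the receptor for the Fc part of IgM, had the largest fall of the Fc receptor list, from 116 and 62.8 CPM in control to 16.7 and 7.44 CPM (log2 fold change -2.86, SE 0.39, edgeR adjusted p = 0.00139). The remaining names among the 12 largest falls with a mean of at least 5 CPM were Grm6 (-3.01), a metabotropic glutamate receptor, Sdc3 (-2.75), a syndecan, Cfp (-2.66), which encodes the complement regulator properdin, Gsn (-2.63), the actin-severing gelsolin, Trim30d (-2.55), Plbd1 (-2.5) and Tbxas1 (-2.32), thromboxane synthase. Tbxas1 was the least even of these (-1.48 without control replicate 1 and -2.91 without control replicate 2 and -3.02 without PU.1 cKO replicate 1). Faim3 was -3.59 without PU.1 cKO replicate 1.

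Outside the H2 region and Mybpc3, the largest rises included receptors and signalling genes better known from T and NK cells. Il2rb, the beta chain of the IL-2 and IL-15 receptors, measured 2.59 and 5.38 CPM in control and 41.5 and 80 CPM in PU.1 cKO, higher in each cKO library than in either control (log2 fold change 3.85, SE 0.36, edgeR adjusted p = 0.000205, and 4.53 without control replicate 2). Zap70, a kinase that binds the T cell receptor's signalling chains, measured 2.03 and 1.81 CPM in control and 24.2 and 18.7 CPM in PU.1 cKO (log2 fold change 3.5, SE 0.16, edgeR adjusted p = 3.72e-06). Atp1b1, the beta subunit of the sodium-potassium pump, rose from 4.28 and 3.62 CPM to 54.3 and 54.6 CPM (log2 fold change 3.8, SE 0.12, edgeR adjusted p = 2.61e-07). Tsku (3.24), Hspa12a (3.21) and Slpi (3.04), which encodes a secreted inhibitor of leukocyte proteases, were also among the 12 largest rises with a mean of at least 5 CPM. The level of Slpi was 1.47 and 1.38 CPM in control and 9.71 and 13.7 CPM in PU.1 cKO. In the DKO libraries over the same controls the changes of Tsku, Hspa12a and Slpi were 0.21, 4.14 and 4.27.

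**Figure D2:**
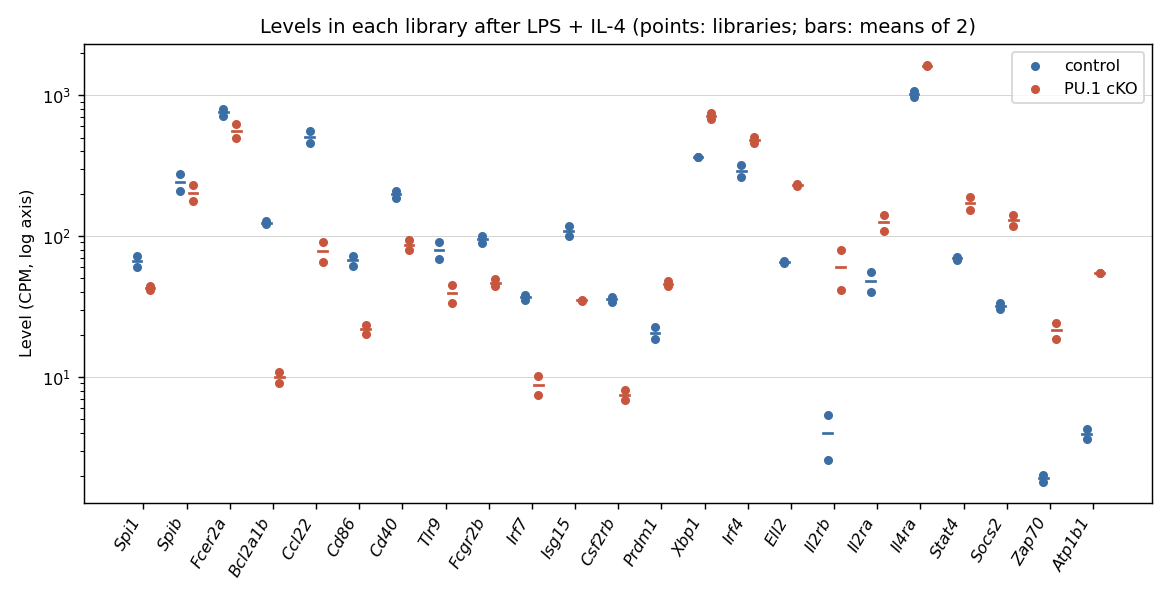
Points are the CPM of single libraries (y, log axis) for 23 genes named in the text, control and PU.1 cKO side by side, with bars at the mean of the 2 libraries of a group. Bcl2a1b, Ccl22, Irf7 and Csf2rb sit lower in both cKO libraries, and Il2rb, Zap70 and Atp1b1 sit higher.

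Most genes induced by type I interferon fell. Of 32 interferon-stimulated genes, all tested, 22 fell and none rose, a share of 68.75% beside 3.87% of all genes called lower. The median log2 fold change was -1.13, and the 10 that were not called lay between -0.58 and -0.05, 7 of them past the adjusted p alone. Isg15, a ubiquitin-like modifier, measured 99.6 and 118 CPM in control and 35.5 and 34.4 CPM in PU.1 cKO (log2 fold change -1.64, SE 0.12, edgeR adjusted p = 5.53e-05). Irf7, the factor that amplifies the interferon response, measured 38 and 35.3 CPM in control and 7.41 and 10.2 CPM in PU.1 cKO, so that the higher cKO library stayed far below the lower control (log2 fold change -2.06, SE 0.16, edgeR adjusted p = 7.91e-05). Both genes were clearly separated between genotypes. The largest falls in the list were Oas2 (-3.66), Rsad2 (-3.01), Mx2 (-2.75), Mx1 (-2.68), Oas3 (-2.26) and Usp18 (-2.22), which encode antiviral effectors and the negative regulator USP18. Stat2, a subunit of the factor that transmits the interferon signal, measured 73.6 and 50.6 CPM in control and 31.7 and 27.1 CPM in PU.1 cKO (-1.07, SE 0.20). Leaving out 1 library moved Oas2 most (-2.89 without control replicate 1 and -3.06 without PU.1 cKO replicate 1 and -4.26 without PU.1 cKO replicate 2) and Oas3 (-2.85 without PU.1 cKO replicate 2). Zbp1 was the smallest fall called, at -0.62, and -0.40 without PU.1 cKO replicate 1, no longer called.

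Genes that sense microbial products moved in part. Of 35 Toll-like receptor (TLR) genes and adaptors tested, 7 fell and 1 rose (22.9% called against 10.4% of all genes), with a median of -0.14. Tlr4, the receptor for the LPS used here, measured 19.1 and 23.6 CPM in control and 22.3 and 20.7 CPM in PU.1 cKO and its log2 fold change was 0.0052 (SE 0.12, edgeR adjusted p = 0.99), with the sign depending on the scaling. Tlr9, the endosomal receptor for unmethylated CpG DNA, measured 90.1 and 68.6 CPM in control and 45 and 33.7 CPM in PU.1 cKO, lower in both cKO libraries (log2 fold change -1.01, SE 0.17, edgeR adjusted p = 0.00419). Unc93b1, which carries endosomal TLRs to their compartment, was one of the most abundant genes that fell, at 481 and 357 CPM in control and 268 and 212 CPM in PU.1 cKO (-0.80), and without control replicate 1 its change of -0.57 was below the fold threshold. Irf5 (-1.13), a factor activated downstream of TLRs, Ly86 (-0.98), which encodes the MD-1 partner of CD180, Tlr2 (-0.79) and the adaptor Pik3ap1 (-0.73) fell with Irf7. Sigirr, an inhibitor of TLR and interleukin-1 receptor signalling, rose by 0.79.

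**Figure D3:**
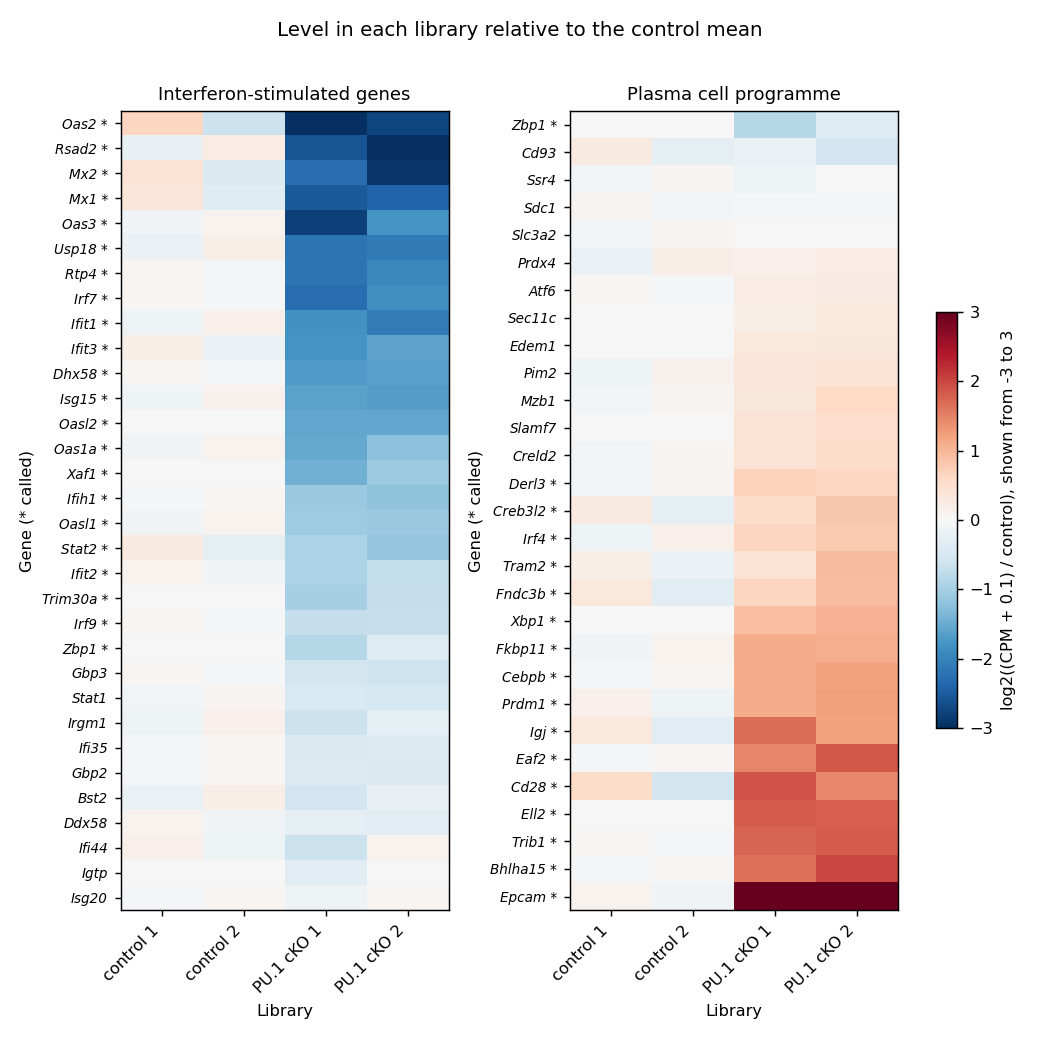
Each row is a gene and each column 1 of the 4 libraries, with colour giving log2((CPM + 0.1) / control) cut at -3 and 3 and an asterisk marking called genes. The 32 interferon-stimulated genes are lower in the cKO libraries, 22 of them called, and of the 29 plasma cell programme genes tested 16 were called higher and 1 lower.

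Genes of the TNF family and of costimulation changed in both directions. Of 33 TNF receptor and costimulation genes tested, 9 rose and 4 fell (39.4% called against 10.4% of all genes, median -0.10). Cd86, a ligand of CD28 and CTLA-4 on T cells, measured 72.5 and 61.8 CPM in control and 23.5 and 20.1 CPM in PU.1 cKO, 3.07-fold lower (log2 fold change -1.62, SE 0.14, edgeR adjusted p = 0.000128). Cd40 measured 187 and 207 CPM in control and 93.7 and 79 CPM in PU.1 cKO (log2 fold change -1.19, SE 0.11, edgeR adjusted p = 0.000216), again lower in both cKO libraries than in either control. Icosl (-1.05), the ligand of ICOS, and Slamf1 (-1.4) fell as well. Among the risers were the TNF family ligands Tnfsf8 (1.72), Tnfsf11 (1.22), which encodes RANKL, with the receptor Tnfrsf26 (1.18), and Ltb (1.11), which lies in the H2 region and whose change in the DKO libraries was 0.051. Tnfsf8 was low, at 0.951 and 0.466 CPM in control and 1.96 and 2.41 CPM in PU.1 cKO. Tnfsf4, which encodes OX40L, was called higher with 4 and 8 counts in the control libraries and 61 and 35 in the cKO libraries. It passed the filter on level through the cKO libraries alone, and no fold is given at so few counts. Cd28 rose by 1.79, from 1.94 and 0.842 CPM to 5.03 and 3.66 CPM (2.38 without control replicate 1 and 1.16 without control replicate 2).

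Fc receptors and inhibitory receptors were among the genes that fell. Of 12 Fc receptor and Fc receptor-like genes tested, 6 fell and 1 rose (58.3% called against 10.4% of all genes, median -0.73). Fcgr2b, the inhibitory receptor for IgG, measured 89.7 and 101 CPM in control and 49.2 and 43.9 CPM in PU.1 cKO (log2 fold change -1.03, SE 0.11, edgeR adjusted p = 0.00045), and Fcrl5, an inhibitory Fc receptor-like protein, measured 135 and 127 CPM in control and 50.8 and 36.5 CPM in PU.1 cKO (log2 fold change -1.58, SE 0.17, edgeR adjusted p = 0.000373). Both were lower in each cKO library than in either control. Fcgr4 (-2.18), Fcrla (-1.67) and Fcgr3 (-1.17) also fell, Fcgr3 losing its call without control replicate 2 (-1.13) or PU.1 cKO replicate 2 (-0.93), while Fcer1g, the common signalling chain of activating Fc receptors, rose by 2.09 (1.5 without PU.1 cKO replicate 1). Of 33 inhibitory receptors and phosphatases tested, 8 fell and 5 rose (39.4% called, median -0.09). Cd72, a receptor that dampens B cell receptor signals, measured 94 and 80.5 CPM in control and 44.5 and 30.5 CPM in PU.1 cKO (log2 fold change -1.21, SE 0.17, edgeR adjusted p = 0.00159). Pirb, a paired immunoglobulin-like receptor for MHC class I, was low, at 4.97 and 2.19 CPM in control and 0.324 and 0.111 CPM in PU.1 cKO (-3.82, SE 0.50, and -3.16 without control replicate 1 and -4.93 without PU.1 cKO replicate 1). Cd300lf (-2.94, and -4.04 without PU.1 cKO replicate 1) and Lilrb4 (-2.06) fell, and Lax1 (1.71) and Pdcd1 (1.1), which encodes PD-1, rose. Sla2 was called higher with 8 and 12 counts in the control libraries and 82 and 47 in the cKO libraries, and no fold is given at so few counts. In the DKO libraries over the same controls the changes of Cd300lf, Lilrb4, Lax1 and Pdcd1 were 0.046, -0.67, 2.18 and 1.46.

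Of 58 tested genes of the B cell receptor complex and its activating signal, 6 fell and 1 rose, which is 12.1% called against 10.4% of all genes, and the median log2 fold change was -0.14. Besides Rasgrp3, Prkcb, the protein kinase C that links the receptor to NF-kB, fell, at 354 and 367 CPM in control and 223 and 195 CPM in PU.1 cKO (log2 fold change -0.79, SE 0.094, edgeR adjusted p = 0.000692). Syk, the kinase at the receptor's signalling chains, passed the adjusted p (0.00175 by edgeR) at a change of -0.58 that stayed just below 1.5-fold, with 328 and 304 CPM in control and 219 and 203 CPM in PU.1 cKO. Without control replicate 2 or PU.1 cKO replicate 1 Syk was called lower (-0.65 and -0.64), as it was by DESeq2 (-0.59).

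Class II antigen presentation leaned lower. Of 20 genes tested, 8 fell and 1 rose (45% called against 10.4% of all genes), the median was -0.46, and 18 of 20 changes were negative. H2-Aa, the alpha chain of I-A and the most abundant gene that fell, measured 2928 and 2496 CPM in control and 1798 and 1636 CPM in PU.1 cKO (log2 fold change -0.66, SE 0.13, edgeR adjusted p = 0.0109), and without control replicate 1 its change of -0.54 was below the threshold. In the DKO libraries the H2-Aa change over the same controls was -0.23 and did not pass (edgeR adjusted p = 0.218). March1, the ubiquitin ligase that removes MHC class II and CD86 from the surface, measured 32.2 and 18.3 CPM in control and 9.4 and 7.99 CPM in PU.1 cKO (log2 fold change -1.52, SE 0.26, edgeR adjusted p = 0.00493). H2-Oa (-1.23) and H2-Ob (-1.1), which form the inhibitor of the peptide loader H2-DM, fell, as did H2-Eb2 (-1.07) and H2-DMb1 (-0.81). The changes of these genes in the DKO libraries over the same controls were -0.062, 0.10, -0.0075 and 0.61. The endosomal proteases Lgmn (-1.09) and Ctss (-0.64, and -0.56 and no longer called without control replicate 1) fell, and Ctsl rose by 0.80 (0.75 and not called without PU.1 cKO replicate 1). The DKO changes of March1, Lgmn, Ctss and Ctsl were -2.52, -1.57, -0.70 and 0.86.

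Of 52 lysosome and phagocytic genes tested, 10 fell and 3 rose (25% called against 10.4% of all genes, median -0.12). Ncf1, which encodes the p47phox subunit of the phagocyte NADPH oxidase, measured 293 and 254 CPM in control and 129.7 and 112 CPM in PU.1 cKO (log2 fold change -1.17, SE 0.10, edgeR adjusted p = 0.000104), with both cKO libraries lower. Cybb (-0.81), its catalytic subunit, and Ncf4 (-0.70) also fell. Grn, which encodes progranulin, measured 285 and 301 CPM in control and 117 and 87.4 CPM in PU.1 cKO (log2 fold change -1.52, SE 0.16, edgeR adjusted p = 0.000406).

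Many called genes lay in the H2 region of chromosome 17, where MHC class I and class II genes sit together. Of 182 tested genes within 5 Mb of H2-K1, 25 rose and 17 fell, so that 23.1% were called against 10.4% of all genes. H2-Ea-ps, the entry for the I-E alpha gene that the H2-b haplotype of C57BL/6 mice does not express, measured 0.259 and 0.645 CPM in control and 1464 and 1143 CPM in PU.1 cKO. It was thus near 0 in both controls and among the abundant messages in both cKO libraries (log2 fold change 11.28, SE 0.26, and 12.27 without control replicate 2), while it lay between 0.025 and 0.134 CPM in the SpiB KO and DKO libraries of this culture. All 8 genes called among the 32 tested for MHC class I and peptide loading rose (25% called against 10.4% of all genes), and all 8 were class I genes, with a list median of -0.02. H2-M2 had 1 and 2 counts in the control libraries and 325 and 151 in the cKO libraries, and the next largest changes were those of H2-K2 (4.67), H2-Q2 (4.53), H2-Q10 (4.43), H2-T3 (3.28) and H2-Q1 (2.75). For H2-K2 the libraries read 4.06 and 2.62 CPM in control and 85.2 and 78.8 CPM in PU.1 cKO, and the DKO change over the same controls was 0.032. Class I genes are close copies of each other, so reads can be split between them and single copies are uncertain. A difference in H2 haplotype between the PU.1 cKO mice and the other genotypes was not tested, and with the 182 genes left out 1212 genes were called, 762 of them higher.

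Genes of the plasma cell programme rose inside a gate that leaves out CD138+ cells. Of 29 tested, 16 rose and 1, Zbp1, fell (-0.40 and not called without PU.1 cKO replicate 1). Thus 58.6% were called against 10.4% of all genes, and the median log2 fold change was 0.70. Prdm1, which encodes BLIMP-1, measured 22.5 and 18.5 CPM in control and 44.2 and 47.8 CPM in PU.1 cKO, 2.25-fold higher (log2 fold change 1.17, SE 0.12, edgeR adjusted p = 0.000268). Xbp1, the factor that expands the secretory pathway, measured 365 and 362 CPM in control and 675 and 750.4 CPM in PU.1 cKO (log2 fold change 0.97, SE 0.091, edgeR adjusted p = 0.0002). Irf4 measured 263 and 320.2 CPM in control and 457 and 502 CPM in PU.1 cKO (log2 fold change 0.72, SE 0.10, edgeR adjusted p = 0.00193), and without control replicate 1 its change was 0.58, below the threshold. In each of these 3 genes both cKO libraries were above both controls. Ell2, an elongation factor that favours the secreted form of immunoglobulin heavy chain, measured 64.8 and 66.8 CPM in control and 232 and 227 CPM in PU.1 cKO (log2 fold change 1.8, SE 0.10, edgeR adjusted p = 1.37e-05). Bhlha15 (1.85), which encodes MIST1, Trib1 (1.82), Eaf2 (1.68), Igj (1.56), the J chain of IgM and IgA, and Epcam (3.25) rose as well. Sdc1, which encodes CD138 itself, was at 8.56 and 7.56 CPM in control and 7.91 and 7.83 CPM in PU.1 cKO (-0.029, edgeR adjusted p = 0.943).

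Of 68 endoplasmic reticulum (ER) and unfolded protein response genes, all tested, 4 rose and none fell, a share of 5.88% beside 6.53% of all genes called higher. Of their 68 log2 fold changes 62 were positive, and the median was 0.27, beside -0.00082 over all genes tested. A further 34 genes of the list passed the adjusted p below 1.5-fold, and all 34 were higher. How many of all genes tested did so was not counted, so the 34 have no background share beside them. The called genes were Sec24d (1.55), a coat component of ER export vesicles, Wfs1 (1.27), Xbp1 and Derl3 (0.66), an ER degradation factor whose call was lost without control replicate 1 (0.58).

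**Figure D4:**
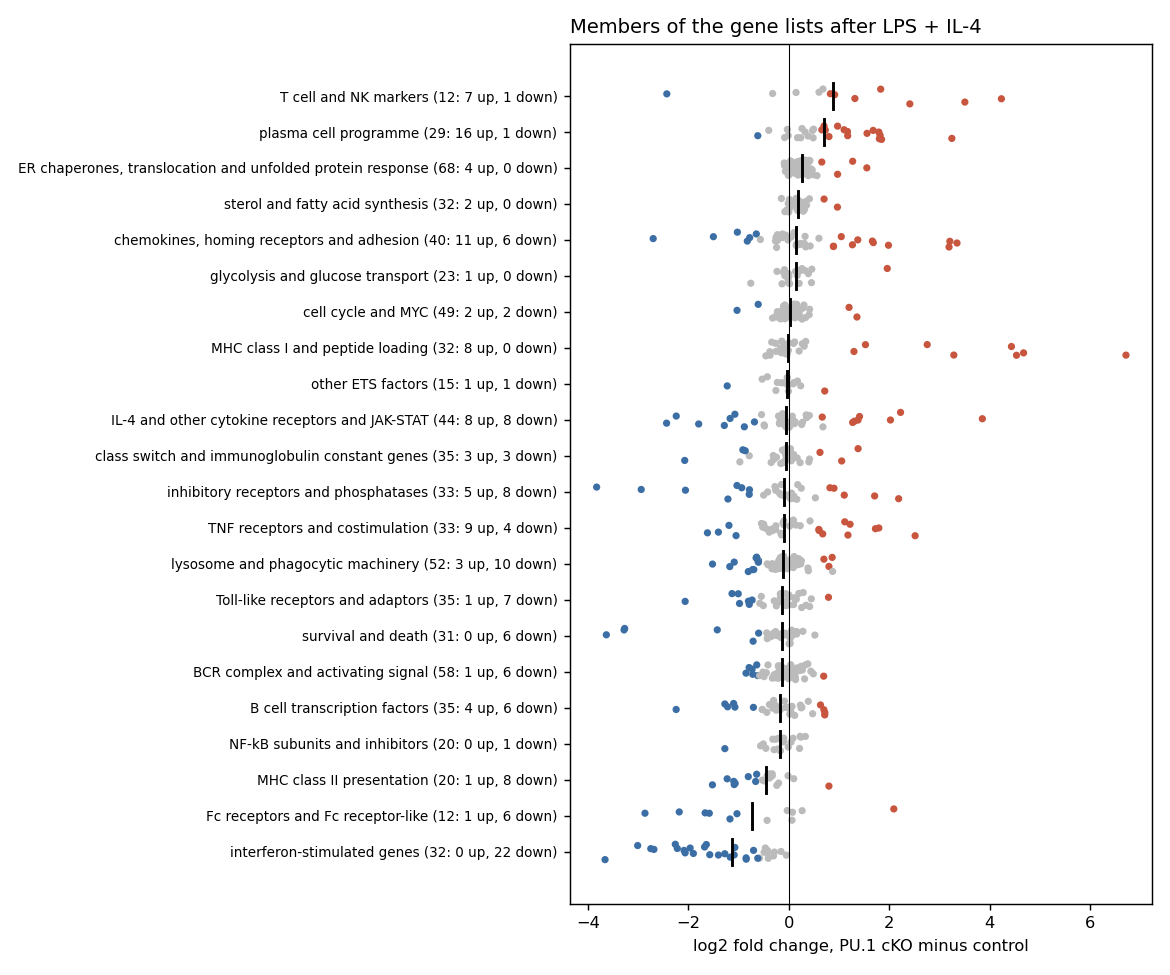
Points are the log2 fold changes (x, PU.1 cKO over control) of the tested members of 22 gene lists with at least 12 tested members, coloured red where called higher, blue where called lower and grey otherwise, with a black bar at each list's median. The interferon-stimulated genes have the lowest median (-1.13), and the plasma cell programme has a median of 0.70. The T and NK row (0.87) shows only the 12 of 29 markers that passed the filter on level.

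Immunoglobulin constant genes moved in different directions. Of 35 class switch and immunoglobulin constant genes tested, 3 rose and 3 fell (17.1% called against 10.4% of all genes, median -0.05). Ighg1, the constant gene of IgG1, measured 129 and 151 CPM in control and 288 and 294 CPM in PU.1 cKO (log2 fold change 1.05, SE 0.11, edgeR adjusted p = 0.000294), whereas Ighe, the other isotype that IL-4 directs, measured 31.2 and 28.7 CPM in control and 16.8 and 16 CPM in PU.1 cKO (log2 fold change -0.87, SE 0.21, edgeR adjusted p = 0.0243). Ighg3, the constant gene of IgG3, measured 8.17 and 3.82 CPM in control and 1.47 and 1.25 CPM in PU.1 cKO (log2 fold change -2.07, SE 0.36, edgeR adjusted p = 0.00517, and -1.47 without control replicate 1). The groups did not overlap in any of these genes. In the DKO libraries over the same controls the changes of Ighg1, Ighe and Ighg3 were 1.14, -1.37 and 1.58, so that Ighg3 went the other way there. Ighg2b changed by -0.91 and lost its call without PU.1 cKO replicate 2 (-0.85). Ighm, the IgM constant gene, was the most abundant protein-coding gene that rose, at 6033 and 5977 CPM in control and 9235 and 9232 CPM in PU.1 cKO (0.62), and with all 24 libraries in the fit its change of 0.58 and that of Ighe (-0.91) were no longer called. The counts do not separate membrane from secreted transcripts or germline from switched ones.

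Cytokine receptor and JAK-STAT genes moved in both directions, with 8 of 44 higher and 8 lower (36.4% called against 10.4% of all genes, median -0.05). Csf2rb, the common beta chain of the IL-3, IL-5 and GM-CSF receptors, measured 37.1 and 34.3 CPM in control and 8.11 and 6.91 CPM in PU.1 cKO (log2 fold change -2.24, SE 0.19, edgeR adjusted p = 0.000116), and its neighbour and close copy Csf2rb2 changed by -2.43. Il10ra, a chain of the receptor for the inhibitory cytokine IL-10, measured 75.6 and 57.3 CPM in control and 29.1 and 25.3 CPM in PU.1 cKO (log2 fold change -1.28, SE 0.14, edgeR adjusted p = 0.000375), and Il6ra fell by 1.79. Il4i1, an amino acid oxidase gene named for its induction by IL-4, fell from 21.1 and 15.4 CPM to 9.51 and 6.47 CPM (-1.17). In the DKO libraries over the same controls the changes of Csf2rb, Csf2rb2, Il10ra, Il6ra and Il4i1 were -0.40, -0.97, -1.13, -1.2 and -0.057. Il2ra, the alpha chain of the IL-2 receptor, rose with Il2rb and measured 40.4 and 55.3 CPM in control and 109 and 140.4 CPM in PU.1 cKO (log2 fold change 1.38, SE 0.18, edgeR adjusted p = 0.00111). Socs2 (2.02), a feedback inhibitor of STAT5 signals, Stat4 (1.31), which IL-12 activates, Il1r2 (2.22), a decoy receptor for IL-1, and Il13ra1 (1.41), which pairs with the IL-4 receptor, rose. Il4ra, the receptor for the IL-4 in the medium, measured 1069 and 972 CPM in control and 1639 and 1598 CPM in PU.1 cKO (log2 fold change 0.67, SE 0.11, edgeR adjusted p = 0.00354), and without control replicate 2 its change was 0.58, below the threshold.

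Chemokine and homing genes divided as well, with 11 of 40 higher and 6 lower (42.5% called against 10.4% of all genes, median 0.15). Besides Ccl22, Cxcl10 (-1.5), an interferon-induced chemokine, and S1pr3 (-1.02) fell. Cxcr3, the receptor for CXCL10, was called higher with 0 and 8 counts in the control libraries and 49 and 44 in the cKO libraries, and no fold is given at so few counts. Ccr9 (3.35), a gut-homing receptor, the signalling regulators Rgs16 (3.21) and Rgs1 (1.98, and 2.65 without control replicate 1 and 1.32 without control replicate 2), S1pr2 (1.68), which confines B cells to follicles, and the chemokines Ccl4 (1.66) and Ccl3 (1.37, and 1.97 without control replicate 2) rose.

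Of the T and NK markers, 12 of 29 were tested, and 7 rose and 1 fell (median 0.87 over the 12, which passed the filter on level and are not all members). Tbx21, which encodes T-bet, measured 0.13 and 0.287 CPM in control and 3.91 and 5.08 CPM in PU.1 cKO (4.23, SE 0.31, and 5.06 without control replicate 2). Prf1 (2.41, and 1.81 without PU.1 cKO replicate 2), Lat (1.83, and 2.52 without control replicate 2), Thy1 (1.32), Lck (0.91) and Cd2 (0.83) rose with Zap70, and Cd8b1 fell by 2.43 at a level of 1.17 and 0.645 CPM in control, a call that was lost without PU.1 cKO replicate 2 (-2.09). The 12 tested genes summed to 83.6 and 73.9 CPM in control and 184 and 194 CPM in PU.1 cKO. The 17 untested markers, with no CD3 chain above 6 counts, gave 21 and 35 counts in all in the control libraries and 95 and 28 in the cKO libraries, 4 of them being at 0 in every library, and the cells had been sorted as CD3-. These sums are not scaled for depth, and the 95 came from the deepest of the libraries compared, at 73658850 counts. Among the 4 tested macrophage and granulocyte markers, Emr1 fell by 2.11 from 14.5 and 8.71 CPM to 3.32 and 1.83 CPM. Of the 10 tested dendritic cell markers 2 rose and 1 fell (30% called against 10.4% of all genes), and the 1 tested erythroid marker was not called.

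Transcription factors of the B cell network changed selectively. Of 35 tested, 6 fell and 4 rose (28.6% called against 10.4% of all genes, median -0.17). Mef2b, a factor of germinal centre B cells, measured 39.3 and 35.3 CPM in control and 8.34 and 7.35 CPM in PU.1 cKO (log2 fold change -2.24, SE 0.26, edgeR adjusted p = 0.000543), and Nfkbiz, which encodes the nuclear inhibitor family member IkB-zeta, measured 99.6 and 83.1 CPM in control and 42.3 and 33.1 CPM in PU.1 cKO (log2 fold change -1.27, SE 0.14, edgeR adjusted p = 0.000474). Both fell beyond the spread of the libraries. Zeb2 (-1.22) and Lef1 (-1.1) fell. In the DKO libraries over the same controls the changes of Mef2b, Nfkbiz, Zeb2 and Lef1 were -1.21, -0.77, -0.69 and 0.052. Pou2af1, the B cell co-activator OBF1, was an abundant gene that rose, at 792 and 769.6 CPM in control and 1184 and 1349.9 CPM in PU.1 cKO (0.70, SE 0.10). Of 15 other ETS factors tested, Etv5 fell by 1.23 and Ets1 rose by 0.72, the latter losing its call without control replicate 2 (0.51). Their share of the list, 13.3%, is near that of all genes.

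Several lists had shares called below the 10.4% of all genes. They were 8.16% for the cell cycle, 5% for NF-kB, 4.35% for glycolysis and 6.25% for sterol and fatty acid synthesis. These lists are small, and the shares were not tested against that of all genes. Of 49 cell cycle and MYC genes 2 rose and 2 fell (median 0.02), but Ccnd2, which encodes the D-type cyclin of activated B cells, was among the most abundant genes that fell, at 1361 and 1672 CPM in control and 769 and 716 CPM in PU.1 cKO (log2 fold change -1.03, SE 0.12, edgeR adjusted p = 0.000621). The cell cycle inhibitor genes Cdkn1a (1.2) and Mxd1 (1.36), a MYC antagonist, rose. Of 20 NF-kB genes only Nfkbiz was called (median -0.17). Of 23 glycolysis genes 1 was called (median 0.13) and of 32 sterol and fatty acid synthesis genes 2 were (median 0.18), both higher, with Scd2, a desaturase gene, at 0.97.

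Among the most abundant genes that changed were also Marcksl1 (-0.64), Cd52 (-0.70), which encodes a small surface glycoprotein of lymphocytes, and Rps2 (-0.85), which encodes a protein of the small ribosomal subunit, all lower. The ribosomal entries Rn45s (1.99) and Rn18s (2.06), Lars2 (2.14) and the RNA component Rmrp (4.6) were called higher, but these rest on PU.1 cKO replicate 2, with Rn45s at 5654 and 4955 CPM in control and 8217 and 33817 CPM in PU.1 cKO, the last value being from replicate 2. Clic4, a chloride channel gene, rose by 0.65 and Tmem123 fell to 998 and 857 CPM from 1634 and 1212 CPM (-0.62). The calls of Clic4 without PU.1 cKO replicate 2 (0.57) and of Tmem123 without that library (-0.52) or without control replicate 1 (-0.39) were lost. Without PU.1 cKO replicate 2 the log2 fold changes of Rn45s, Rn18s, Lars2 and Rmrp were 0.62, 0.61, 0.80 and 2.15 and none was called, and without control replicate 2 none was called either (1.88, 1.94, 1.99 and 3.97).

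The same genotype contrast in the culture with CD40L and IL-4 allowed a test of whether the effect differed between stimuli. CD40L stands for the T cell signal through CD40, and the labels and methods give the 2 groups there the same genotypes and 2 libraries each, at 9598674 to 61640683 counts. Of 12643 genes tested over the 16 libraries of both cultures, 418 (3.31%) had a log2 fold change that differed between cultures at an edgeR adjusted p below 0.15, and in 134 of these the value was more negative with LPS and IL-4. This count was unstable, with 1357 when the replicate number entered as a block, 113 without control replicate 2 and 130 without PU.1 cKO replicate 1 of the LPS culture, 203 without PU.1 cKO replicate 2 of the LPS culture, and 151 without PU.1 cKO replicate 2 of the CD40L culture.

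**Figure D5:**
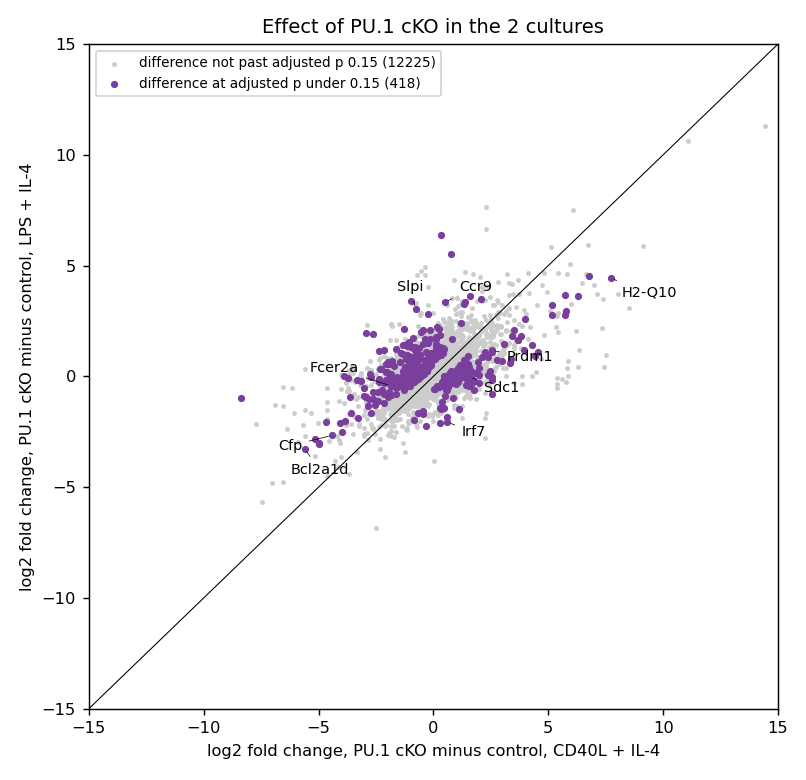
Each point is 1 of 12643 genes, with its log2 fold change of PU.1 cKO over control in CD40L and IL-4 (x) and in LPS and IL-4 (y), in purple for the 418 whose values differed at an adjusted p below 0.15 and in grey otherwise. Points on the diagonal line have equal changes in both cultures, and the purple points lie off it on both sides.

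The interferon-stimulated genes and the plasma cell programme both held genes whose response differed between stimuli. Of the 32 interferon-stimulated genes, 8 differed, against 3.31% of all genes tested, and 7 of the 8 were more negative with LPS and IL-4. The list medians were -1.13 with LPS and -0.34 with CD40L. The changes of Isg15 (-1.64 and -1.64) and Stat2 (-1.07 and -1.05) were close in both cultures, and Isg15, Rsad2 and Mx1 were below 1 CPM in all 4 CD40L libraries. Irf7 had measured 1.79 and 3.46 CPM in control and 4.94 and 3.33 CPM in PU.1 cKO of the CD40L culture (log2 fold change 0.60), and the difference between cultures was -2.66 (SE 0.38, edgeR adjusted p = 0.0064). Of 30 plasma cell genes tested, 10 differed, against 3.31% of all genes tested, and 8 of the 10 had the smaller rise or larger fall with LPS. The medians were 0.71 and 1.0. How many of the 8 and the 10 remain with 1 library left out was not counted. Prdm1 rose by 2.55 in the CD40L culture, from 8.51 and 9.42 CPM to 50.1 and 54.3 CPM, and the difference of -1.38 (SE 0.19) passed at an edgeR adjusted p of 0.0064. Bcl2a1d, which fell in both cultures, changed by -5.6 with CD40L, and the difference was 2.33 (SE 0.38, edgeR adjusted p = 0.0123), a result lost without PU.1 cKO replicate 2 of the CD40L culture (1.99). Fcer2a fell by more with CD40L, from 1044 and 1100.0 CPM to 294 and 305 CPM, with a difference of 1.41 (SE 0.21, edgeR adjusted p = 0.00734). For Spi1 itself the CD40L change was -1.25, and the difference of 0.62 did not pass (edgeR adjusted p = 0.272). Of the 20 MHC class II genes, 0 differed at an edgeR adjusted p below 0.15, and 1 had an unadjusted p below 0.05.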

How the data were processed

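RNA-seq was read from a gene count table and a table of log2 RPKM values. Libraries were made with a TruSeq kit, per the labels. Per the study's methods, they were sequenced on a NextSeq, and reads were aligned to GRCm38 with Subread. Uniquely mapped reads were counted over RefSeq exons with featureCounts, and the strand setting and tool versions are not given in the sources used here. The raw counts were deposited by the authors without normalization, and their log2 RPKM values, which the authors quantile normalized, served only for 1 alternative filter. The sample titles gave genotype, culture and replicate, since 1 extract protocol that names only CD40L is attached to every sample.

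Here genes reaching 0.5 CPM in 2 or more of the 4 compared libraries were tested with edgeR 4.0.16 (quasi-likelihood test, TMM scaling, R 4.3.3), with all 8 LPS and IL-4 libraries in 1 fit and a coefficient per genotype. Entries without a symbol, 517 in the table, took 0.138 to 0.273% of the counts. Calls required an adjusted p below 0.15 (Benjamini-Hochberg) and a fold above 1.5. SEs are the log2 fold change over the square root of F. The difference between cultures used 16 libraries. The adjusted p and fold thresholds follow the study's methods, and its filter on log2 RPKM above 0 was an alternative. Limma 3.58.1 (voom) and DESeq2 1.42.0 were run as alternatives, with other scalings and filters and each library left out. On simulated counts with the real levels, 85% of changes of 1 and 96% of changes of 2 (log2) were recovered, with 30 false calls over 12054 genes, and for the difference between cultures 47% and 87%, with 17 false calls over 12643 genes. The simulated libraries were drawn independently, with 100 changes of each size. They lack the deviations shared by replicate number that are described below.

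Samples with the same replicate number deviated together in the LPS culture (r 0.441 to 0.561 over the 6 pairs of genotypes) but not throughout the CD40L culture (-0.058 to 0.26), and no source says what the number marks. The main comparison has no block. Control and PU.1 cKO libraries are biological replicates per the study. The p-values of the main comparison rest on the spread within genotypes over all 8 LPS and IL-4 libraries. That spread is moderated across genes and is not that of the 4 compared libraries alone.

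The comparison, gene lists and motif were chosen with earlier results of these data known. Genes were named as the 12 largest rises and falls with a mean of at least 5 CPM, the 8 most abundant called genes in each direction, called genes within 1 Mb of Spi1, and the called list members with the largest changes, up to 6 in each direction. List counts and medians are descriptions with no test. Positions come from the GRCm38.p6 annotation (11796 of 12054 genes) and promoter windows from RefSeq (9106 of 12054), both by gene ID. Some genes that this rule would name are not reported here.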

Additional observations from a re-analysis of the deposited data

Results flagged for a closer look

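Named genes whose PU.1 cKO effect differed between the LPS and CD40L cultures at an edgeR adjusted p below 0.05 are given here as the log2 fold change with LPS and IL-4 minus that with CD40L and IL-4. The difference was positive for Slpi (3.81), Ccr9 (2.86), Lilrb4 (2.6), Ccl3 (2.53), Rgs1 (2.52), Bcl2a1d (2.33), S1pr2 (2.06), Cfp (1.75), S1pr3 (1.6), Cd2 (1.56), Plbd1 (1.46), Fcer2a (1.41) and Thy1 (1.03). It was negative for H2-Q10 (-3.29), H2-Q1 (-2.97), Irf7 (-2.66), H2-Q2 (-2.23), Sdc1 (-1.59), Prdm1 (-1.38) and Derl3 (-1.28). For Slpi the change was 3.04 with LPS and -0.78 with CD40L, where it measured 309 and 350.1 CPM in control and 131 and 251 CPM in PU.1 cKO. Sdc1 encodes CD138, on which the cells were gated. With each of the 8 libraries left out in turn, 4 of the 20 genes (Irf7, Prdm1, Cfp and S1pr3) stayed below 0.05 throughout, and all 20 kept their sign.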

How the results depend on the processing

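The 1254 calls became 746 (442 higher, 304 lower) with a minimum of 5 CPM, 698 (458 higher, 240 lower) at a fold above 2, and 826 (490 higher) among genes with a mean log2 RPKM above 0. The other settings gave 979 to 1454, with 1423 under the replicate block, and 904 to 1257 with 1 library left out, of which 851 to 1034 were among the 1254. The block changed the call of no named gene. The median of all genes moved by at most 0.04 under any scaling. The interferon-stimulated median was -1.17 with all 24 libraries, -1.1 with voom, -1.07 at 5 CPM and -1.21 to -1.1 with 1 library left out. The plasma cell median was 0.58 with voom and at 5 CPM and 0.54 to 0.78 with 1 library left out. The T and NK marker median was 1.31 without a filter, 1.12 at 5 CPM and 0.84 to 0.96 with 1 library left out. Fc receptors had -0.44 without a filter and -1.03 at 5 CPM, and TNF receptor genes 0.042, -0.15 and -0.15 to -0.071. Class switch genes had -0.088 with all 24 libraries, -0.075 with library totals and -0.034 to -0.012 with 1 library left out. With 1 library left out the medians of B cell transcription factors (-0.25 to -0.0020), the B cell receptor pathway (-0.23 to -0.020), cytokine receptors (-0.080 to 0.054), MHC class I (-0.077 to 0.084), the cell cycle (-0.084 to 0.060), inhibitory receptors (-0.22 to 0.018), other ETS factors (-0.12 to 0.078), glycolysis (-0.018 to 0.23) and survival genes (-0.22 to -0.077) also moved, 6 of them through 0. Spi1 (-0.63) is below a fold of 2 and lay between -0.77 and -0.50, and Fcer2a was -0.60 to -0.29 with 1 library left out. Tlr4 was -0.033 with all 24 libraries, -0.0092 with DESeq2, -0.026 with voom, -0.0074 with RLE size factors, -0.017 with library totals, -0.00089 without a filter, -0.0082 without Rn45s and -0.13 to 0.16 with 1 library left out, and Sdc1 -0.13 to 0.057. The 418 genes that differed between cultures became 1357 with the replicate block and 113 to 390 with 1 library left out, with 130, 151 and 203 between. The motif shares were 17.7, 10.6 and 10.7% for AGGAAGT and 16.4% of all for CGGAAGT. Over 22 settings the named genes gave 103 lost and 10 gained calls, 32 of the lost ones at a fold above 2 and 27 at a mean log2 RPKM above 0, and 10 changes of sign, all of Tlr4 and Sdc1. The causes were not tested. Where 1 library is left, it is assumed to vary like the others, and with 2 libraries a group small changes of low genes are beyond this depth.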

Other observations

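Immunoglobulin variable genes, chosen after their values were seen, had higher counts in PU.1 cKO cells. Of 94 heavy-chain variable (Ighv) genes tested, 50 were called higher and 0 lower (median log2 fold change 0.65), against 6.53% of all genes called higher. Their summed level was 971 and 984 CPM in the control libraries and 1465 and 1609 CPM in the cKO libraries. Of 96 kappa variable (Igkv) genes, 24 were called higher and 0 lower (median 0.38), with sums of 1463 and 1575 CPM against 1936 and 2099.9 CPM, and of 3 lambda variable (Iglv) genes 0 were called. Variable genes are close copies that a few large clones can dominate, and the repertoire was not measured. By chromosome, the share of tested genes called was largest on chromosome 12, which holds the heavy-chain locus (19.5%), and next on chromosome 17, which holds the H2 region (12.7%).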
